A study of Homo sapiens with 12 samples.

Results

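The exon and junction probe sets to which the array's annotation gives no gene symbol were followed through a knockdown of the splicing regulator RBFOX2 with 3 hairpins. Of 913055 exon and junction rows on the array, 201487 carry no symbol: 165210 exon rows, 28.8% of all exon rows, and 36277 junction rows, 10.7% of all junction rows. A row was kept when its mean log2 level over all 12 arrays exceeded the 40th percentile of all exon and junction rows, which lies at 6.53. Rows with the same values on every array were counted once. This left 76194 unnamed rows, 63766 exon and 12428 junction rows, among 518253 rows tested in all; the other 442059 carry a symbol. The level that chose the rows is an average over all groups; no difference between groups was used as such, although a row low in 1 group could pass through the others. The unnamed rows just inside and just outside the cutoff differ only beyond the second decimal: the nearest 3 on each side all round to 6.53.

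The cells were 293T, an established line from human embryonic kidney in which SV40 large T antigen is expressed. Groups were infected with lentivirus coding for shRNA1 (TRCN0000074544), shRNA2 (TRCN0000074546) or shRNA3 (TRCN0000074543), all against RBFOX2, or for a non-target control hairpin (SHC016). Every group, the control included, was put under 1 ug/mL puromycin 48 h after infection for 10 days before total RNA was taken. Each of the 4 groups has 3 arrays. The labels do not say that these came from separate cultures, so the p-values measure no more than the array-to-array spread within a group, possibly technical, and the small number of arrays limits the precision. The 3 comparisons with the control share the same 3 control arrays, as does the comparison of the mean of the 3 hairpins with the control.

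RBFOX2 binds GCAUG elements in introns and regulates which exons are joined into the mature transcript. An exon probe set reads sequence within an exonic region, and a junction probe set reads sequence across the join of 2 exonic regions. When an alternative exon is used less, junctions that lead into it fall and the junction that skips it rises, while the rest of the transcript can stay level; when a whole transcript changes, its exons and junctions move together. An empty symbol means that the annotation used here, which can be old, lists no gene for the row. It does not mean that no gene lies there. No position, sequence or gene is available here for these rows, so they are called by their array IDs without the shared ending. An ID gives the row type (PSR for exon, JUC for junction), a chromosome code and a serial number. Among rows with a symbol that could be placed, the code matched the chromosome of the gene in RefSeq for 588568 of 589328 rows (99.9%). Where 2 rows with 1 symbol each had adjacent serial numbers, the symbol was the same in 304930 of 310096 exon pairs (98.3%). For junction pairs it was the same in 264518 of 278019 (95.1%). This could not be checked for rows without a symbol, so unnamed rows with adjacent numbers are not known to belong to the same gene.

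The targeted gene was lower in every knockdown array. The mean log2 level over 44 RBFOX2 rows was 8.59, 8.54 and 8.51 on the shRNA1 arrays, 9.10, 9.11 and 9.16 on the shRNA2 arrays and 8.82, 8.84 and 8.85 on the shRNA3 arrays, against 9.59, 9.58 and 9.58 on the control arrays. On this scale, RMA log2 intensity, 48.7%, 72.6% and 59.7% of the control signal was left with shRNA1, shRNA2 and shRNA3. Among marker genes, the median row level of VIM (11.3), NEFL (10.2) and LIN28B (9.37) lay above the level cutoff. Of 8 markers of blood, liver, epithelial, endothelial or stromal cells 7 lay below it, at 3.51 to 5.79, and the basal keratin KRT5 lay above it at 6.79, with 12 of its 23 rows above the cutoff. The median level of an array ranged from 7.24 to 7.27 over all rows, and correlations between arrays ranged from 0.991 to 0.995; over the unnamed rows alone they ranged from 0.985 to 0.995. The shRNA2 arrays were the least alike within a group: over the unnamed rows the mean correlation of an array with the other 2 of its group was 0.990, 0.991 and 0.990 for shRNA2, against 0.993 to 0.995 for the arrays of the other groups. In bulk RNA such as this, fewer cells that express a transcript and less of it in each cell cannot be told apart.

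Unnamed rows tended to be dimmer than named ones. Only 39.5% of them exceeded the level cutoff, against 65.8% of rows with a symbol. Above the cutoff, the median log2 level was 8.09 for unnamed exon rows and 8.17 for unnamed junction rows, against 8.71 and 8.74 for named exon and junction rows. The median SD within a group was 0.105 for unnamed exon rows and 0.149 for unnamed junction rows, against 0.0971 and 0.134 for named ones. Unnamed rows also come in blocks. Where both adjacent numbers are on the array, both were unnamed for 139300 of 147605 unnamed exon rows (94.4%). For unnamed junction rows the count was 25930 of 35437 (73.2%). The exon rows form 14853 unbroken runs of unnamed numbers with a median of 3 rows, and the longest holds 674. Of the unnamed rows kept, 2172 had values identical on all 12 arrays to a row with a symbol, 1509 exon and 663 junction rows, and 1953 of these share the chromosome code with the named row.

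The first question was how many unnamed rows each hairpin moved. With limma's moderated test, adjusted by Benjamini-Hochberg over all 518253 rows of a comparison, rows with an adjusted p below 0.05 were called. With shRNA1, 543 unnamed exon rows rose and 229 fell, 1.21% of them in either direction, against a background of 1.42% over all exon rows tested (1.03% higher and 0.382% lower). Among unnamed junction rows, 128 rose and 74 fell with shRNA1, or 1.63%, against 2.2% over all junction rows (1.61% higher and 0.594% lower). With shRNA2, 1013 exon rows rose and 840 fell, or 2.91% against 3.53% (1.64% higher and 1.89% lower over all exon rows), and 443 junction rows rose and 248 fell, or 5.56% against 5.86% (3.42% higher and 2.44% lower over all junction rows). With shRNA3, 1440 exon rows rose and 1646 fell, or 4.84% against 5.61% (2.31% higher and 3.3% lower), and 356 junction rows rose and 250 fell, or 4.88% against 6.34% (3.06% higher and 3.28% lower). In each of these comparisons the share of unnamed rows called in either direction lay somewhat under the share over all rows. That difference was not tested.

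The mean of the 3 hairpins set against the control called 1966 unnamed exon rows higher and 1711 lower. That is 5.77% of them, against 6.52% over all exon rows (3.21% higher and 3.31% lower). It called 516 unnamed junction rows higher and 358 lower, or 7.03%, against 8.38% over all junction rows (4.82% higher and 3.56% lower). Set side by side in 1 range of levels, the shares stood in the same order: among exon rows at a log2 level of 8 to 10, 7.24% of unnamed and 7.94% of named rows were called, and among junction rows of that range 8.03% and 9.54%. In 241 of the 3677 exon calls and 81 of the 874 junction calls, at least 1 group's mean lay at or below the level cutoff, so that such a row passed the level filter through the groups in which it was higher. Over all unnamed rows kept, called or not, this held for 2594 of 63766 exon and 689 of 12428 junction rows.

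**Figure D1:**
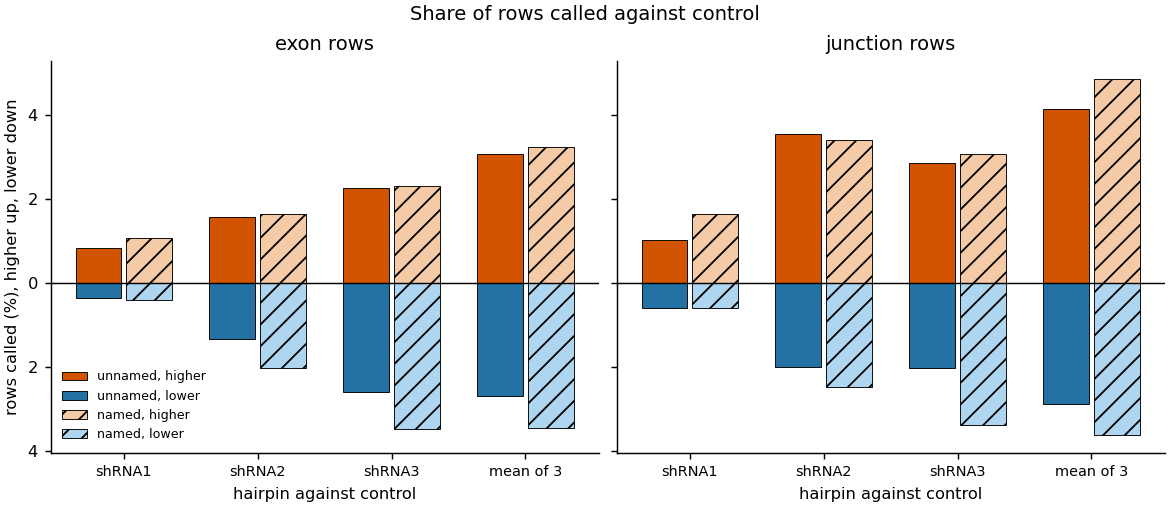
Percent of rows called higher (upward bars) and lower (downward bars) in unnamed and named rows, for exon rows and junction rows, with shRNA1, shRNA2, shRNA3 and the mean of the 3 hairpins against the control. For exon rows in the mean comparison the unnamed bars reach 3.08% higher and 2.68% lower.

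Most changes were small. The median change of the exon rows that rose was 0.44, 0.37 and 0.38 on the log2 scale with shRNA1, shRNA2 and shRNA3, and that of the exon rows that fell was -0.39, -0.36 and -0.38. A change of at least 1.5-fold was reached by 120 of the risen exon rows under shRNA1, 128 under shRNA2 and 192 under shRNA3, and by 23, 40 and 194 of the fallen ones. For junction rows the same counts were 52, 98 and 75 risen and 16, 37 and 55 fallen. In either direction these are 0.224%, 0.263% and 0.605% of unnamed exon rows, against 0.298%, 0.304% and 0.583% of all exon rows, and 0.547%, 1.09% and 1.05% of unnamed junction rows, against 0.729%, 1.17% and 1.27% of all junction rows. The shares of unnamed rows were near those over all rows.

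The counts depended on single arrays, and most of all on the control arrays and on those of the hairpin tested. Each array was left out for all rows of the fit, and the share over all rows was not counted then. Whether this dependence is particular to the unnamed rows is therefore not known here. With shRNA1, 772 exon and 202 junction rows were called on all arrays. Without control replicate 1, 2 or 3 the exon count was 135, 334 or 168 and the junction count 51, 95 or 55; without shRNA1 replicate 1, 2 or 3 it was 176, 96 or 232 and 67, 31 or 67; and without shRNA2 replicate 1 the exon count was 1364. With shRNA2, 1853 exon and 691 junction rows were called on all arrays. Without control replicate 1, 2 or 3 there were 419, 903 or 238 exon and 226, 323 or 103 junction rows. Without shRNA2 replicate 2 there were 604 exon and 313 junction rows, without shRNA2 replicate 3 664 and 240, and without shRNA1 replicate 2 1174 exon rows. In each of these cases but that of shRNA2 replicate 1 the count was lower than on all arrays. With shRNA3, 3086 exon and 606 junction rows were called on all arrays. Without control replicate 1, 2 or 3 there were 727, 1731 or 772 exon and 206, 332 or 166 junction rows, and without shRNA3 replicate 1, 2 or 3 there were 501, 1646 or 1538 exon and 114, 402 or 338 junction rows. In the mean comparison 628, 1741 or 663 exon rows were called without control replicate 1, 2 or 3, against 3677, and 241, 423 or 185 junction rows, against 874. Without shRNA1 replicate 2 they were 1992 and 520, without shRNA3 replicate 1 2216 and 557. Leaving out shRNA2 replicate 1 raised the exon count in every comparison with the control, to 1364 for shRNA1, 2532 for shRNA2, 4027 for shRNA3 and 5194 for the mean, and gave 283, 635, 759 and 1099 junction rows. Thus the order of the hairpins by number of exon calls, lowest with shRNA1 and highest with shRNA3, is a description of these arrays.

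How far a change was shared with rows numbered nearby was counted for exon rows and junction rows apart. In the mean comparison, 64.2% of the 1966 unnamed exon rows that rose had another unnamed exon row within 10 numbers that also rose, while 17.4% of all 63766 unnamed exon rows had such a neighbour. For the 1711 exon rows that fell the share was 58.6%, against 15% of all. Among junction rows it was 34.1% of those that rose and 41.1% of those that fell, against 19.1% and 13.1% of all. Rows with a change of at least 1.5-fold and 3 or more kept neighbours were set against the median of those neighbours. At least 1.5-fold apart from it lay 43 of 63 junction rows (68.3%) and 40 of 163 exon rows (24.5%). Among all called rows with such neighbours the shares were 8.37% and 1.58%, and among all unnamed rows with them 0.814% and 0.133%. A row picked for a large change lies apart from neighbours near 0 by that choice. Neighbouring rows may share probes or a transcript and are not independent, so these shares are descriptions without a test.

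The junction row with the lowest change in the mean comparison was JUC01022865. Its log2 levels were 6.27, 5.42 and 6.59 under shRNA1, 7.69, 8.19 and 8.40 under shRNA2 and 6.20, 6.56 and 5.49 under shRNA3, against 9.42, 9.27 and 9.31 in the control. All 9 knockdown arrays lay below all control arrays, and the shRNA2 arrays lay between the other 2 hairpins and the control. The shRNA1 and shRNA3 means, 6.10 and 6.08, lay under the level cutoff of 6.53. The change was -3.24, -1.24 and -3.25 (SE 0.30 each) with shRNA1, shRNA2 and shRNA3, with adjusted p of 0.000323, 0.04 and 0.000381 (limma). The call with shRNA2 was lost on leaving out 1 array in 8 of 12 cases (any control or shRNA2 array, shRNA1 replicate 1 or shRNA3 replicate 1), with an adjusted p of up to 0.109, and also with replicate numbers as a block (0.0681) and with no level filter (0.107). Of the 16 unnamed junction rows kept within 10 numbers, 2 were called higher in the mean comparison, none was called lower and 14 were not called. Their changes ranged from -0.14 to 0.47, with a median of 0.20.

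A second row of the same chromosome code, JUC01022831, had levels of 6.43, 6.62 and 6.27 under shRNA1, 7.86, 8.18 and 8.02 under shRNA2 and 5.43, 6.88 and 6.44 under shRNA3, against 9.32, 9.19 and 9.19 in the control. Its shRNA1 and shRNA3 means, 6.44 and 6.25, also lay under the level cutoff. It followed the same order of groups, with changes of -2.80, -1.22 and -2.99 (SE 0.26) and adjusted p of 0.000361, 0.0285 and 0.000254 (limma). Its shRNA2 call was lost without any 1 control or any 1 shRNA2 array, at an adjusted p of up to 0.0831, and with no level filter (0.0853). Between these numbers lies JUC01022850, which rose by 0.52, 0.42 and 0.51; its shRNA2 call was lost when only the shRNA2 and control arrays were fitted (adjusted p = 0.0503) and with no level filter (0.0502). The numbers between the pair of falling rows thus held a row that moved the other way.

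JUC10011398 fell under all 3 hairpins whichever array was left out. Its levels were 6.50, 6.20 and 6.08 under shRNA1, 7.76, 7.59 and 7.59 under shRNA2 and 6.57, 6.49 and 5.91 under shRNA3, against 8.82, 8.61 and 8.87 in the control. No knockdown array reached any control array, and no shRNA1 or shRNA3 array reached any shRNA2 array. Here too the shRNA1 and shRNA3 means, 6.26 and 6.33, lay under the level cutoff. The changes were -2.50, -1.12 and -2.44 (SE 0.16), with adjusted p of 9.43e-06, 0.00692 and 2.33e-05 (limma). The smaller fall with shRNA2 differed from that with shRNA1 by 1.38 (adjusted p = 0.00548) and from that with shRNA3 by 1.32 in size (shRNA3 minus shRNA2 -1.32, adjusted p = 0.00535), and both differences held without any 1 array. When only the 2 groups compared were fitted, the difference from shRNA1 held (adjusted p = 0.0185) and that from shRNA3 was lost (adjusted p = 0.0812). Of its 11 kept neighbours within 10 numbers, 3 rose and 1 fell, with a median change of 0.05.

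Not far from it in the numbering, 2 junction rows moved the other way. JUC10011419 read 9.50, 9.43 and 9.66 under shRNA1, 9.09, 9.35 and 9.36 under shRNA2 and 9.75, 9.52 and 9.48 under shRNA3, against 8.20, 8.14 and 8.35 in the control. JUC10011410 read 7.90, 7.75 and 7.71, then 7.73, 7.74 and 7.76, then 8.04, 7.87 and 7.74 in the same order of hairpins, against 7.28, 6.79 and 6.69 in the control. Neither row had a knockdown array within its control range. JUC10011419 rose by 1.30, 1.04 and 1.35 (SE 0.10; adjusted p 7.58e-05, 0.00118 and 7.3e-05, limma) and JUC10011410 by 0.86, 0.82 and 0.96 (SE 0.13), and neither lost a call when 1 array was left out. Fitted with the control arrays alone, the shRNA2 call of JUC10011410 was lost (adjusted p = 0.0556). Whether the falling and the rising rows read the same transcript is not known here.

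**Figure D2:**
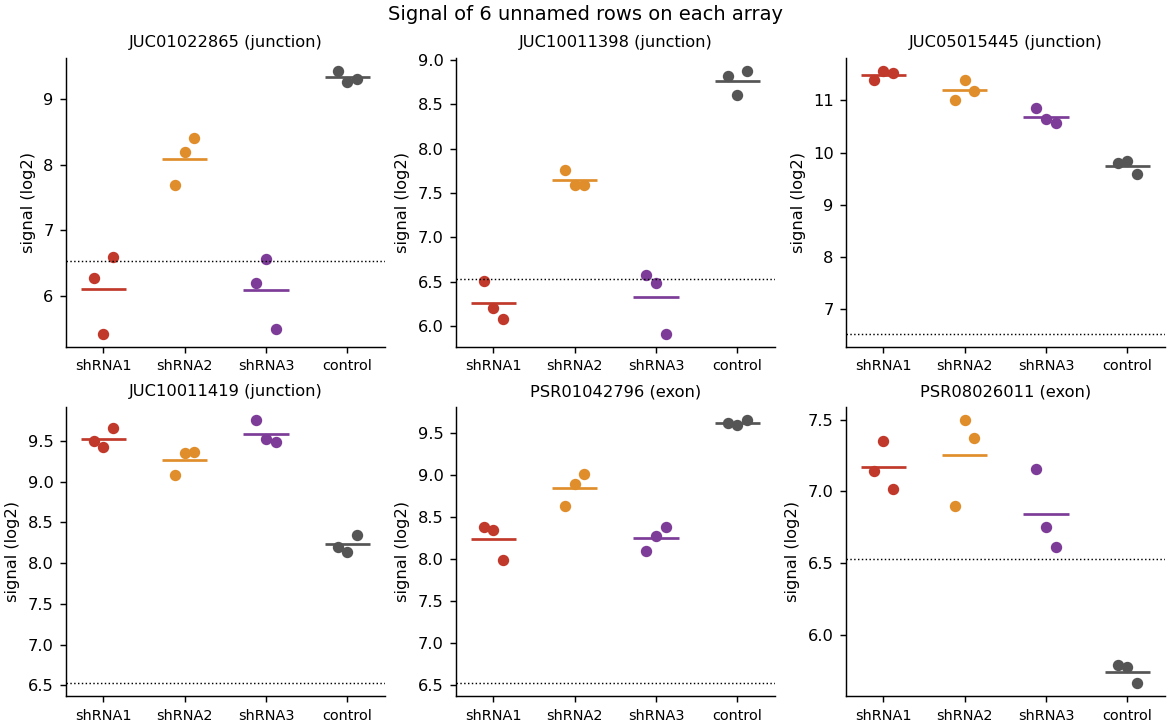
Log2 level of 6 unnamed rows on each array (points), grouped by shRNA1, shRNA2, shRNA3 and control, with the group mean as a bar and the level cutoff as a dotted line. In JUC10011398 the 3 control arrays lie between 8.61 and 8.87, above all knockdown arrays, and in JUC10011419 between 8.14 and 8.35, below all of them.

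The junction row with the highest change was JUC05015445. It read 11.39, 11.56 and 11.52 under shRNA1, 11.02, 11.38 and 11.18 under shRNA2 and 10.86, 10.65 and 10.56 under shRNA3, against 9.79, 9.84 and 9.58 in the control. The groups of knockdown arrays were all above the control arrays, and shRNA3 was the lowest of the 3. The signal was 3.37-, 2.74- and 1.93-fold higher, changes of 1.75, 1.45 and 0.95 (SE 0.11) with adjusted p of 7.46e-06, 0.000192 and 0.0015 (limma), and none of these calls was lost without 1 array. The difference between shRNA3 and shRNA1 was -0.80 (adjusted p = 0.012), and it was lost without shRNA1 replicate 2, shRNA1 replicate 3 or shRNA3 replicate 3, and with no level filter (adjusted p = 0.0636). Of 15 kept unnamed junction rows within 10 numbers, 14 were not called and 1 fell; the median change of the 15 was 0.03.

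Rows of code 03 showed both directions within a short range of numbers. JUC03013655 read 9.51, 9.36 and 9.36 under shRNA1, 8.86, 8.73 and 8.94 under shRNA2 and 9.17, 9.40 and 9.22 under shRNA3, against 8.18, 8.03 and 8.35 in the control. JUC03013667 read 8.01, 8.13 and 8.08 under shRNA1, 8.74, 8.71 and 8.86 under shRNA2 and 8.18, 7.79 and 8.04 under shRNA3, against 9.11, 9.02 and 9.14 in the control. All knockdown arrays of the first row were above its control arrays, and all those of the second were below. JUC03013655 rose by 1.22, 0.66 and 1.07 (SE 0.09). JUC03013667 fell with shRNA1 (-1.01) and shRNA3 (-1.09) and was at -0.32 with shRNA2 (SE 0.09; adjusted p 0.000236, 0.000158 and 0.0632). The difference of shRNA3 from shRNA2 was -0.77 (adjusted p = 0.00497), and it was lost when only those 2 groups were fitted (adjusted p = 0.104). JUC03013649 was at -0.78, -0.44 and -0.82 with shRNA1, shRNA2 and shRNA3, with adjusted p of 0.00735, 0.0507 and 0.00404.

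JUC01025226 fell with each hairpin. It read 8.26, 8.14 and 8.24 under shRNA1, 8.43, 7.98 and 8.19 under shRNA2 and 7.67, 7.995 and 8.004 under shRNA3, against 9.52, 9.12 and 9.20 in the control. The shRNA2 range overlapped that of each other hairpin, and all knockdown arrays lay under the control arrays. The changes were -1.07, -1.08 and -1.39 (SE 0.13), with adjusted p of 0.00288, 0.00392 and 0.000466 (limma). None of its 13 kept neighbours within 10 numbers was called by limma, and their changes ranged from -0.14 to 0.17 with a median of 0.02.

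**Figure D3:**
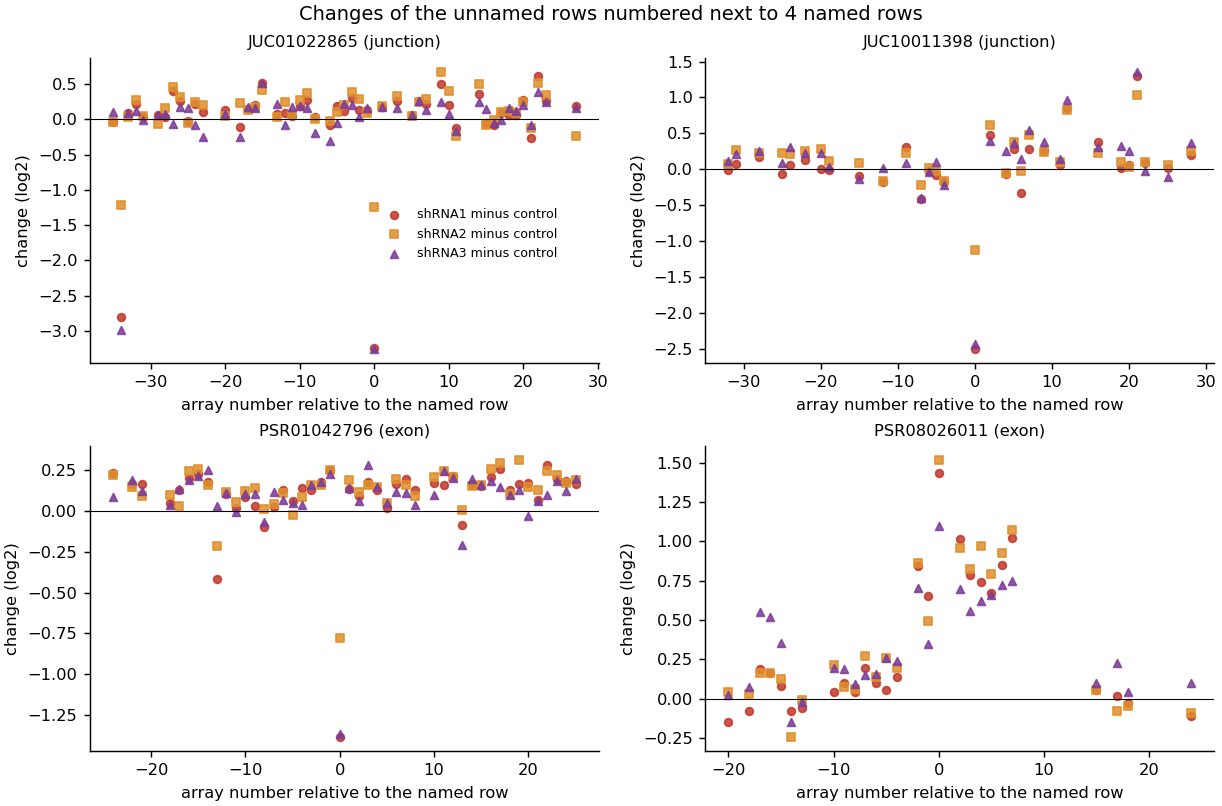
Change against the control (log2) of the unnamed rows of the same type numbered near 4 rows, plotted by array number relative to that row, for shRNA1 (circles), shRNA2 (squares) and shRNA3 (triangles). JUC01022865 and PSR01042796 lie far below rows near 0, while PSR08026011 is the peak of a run of rows above 0. The other low row in the JUC01022865 panel, at number -34, is JUC01022831.

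Among exon rows, PSR01042796 showed the same isolated fall. It read 8.38, 8.34 and 7.99 under shRNA1, 8.63, 8.89 and 9.01 under shRNA2 and 8.09, 8.28 and 8.38 under shRNA3, against 9.62, 9.59 and 9.65 in the control. Every knockdown array was below every control array, with shRNA2 nearest to the control. The signal was 2.61-, 1.71- and 2.58-fold lower, changes of -1.38, -0.78 and -1.37 (SE 0.12) with adjusted p of 0.000168, 0.00922 and 0.00022 (limma). Of 19 kept exon rows within 10 numbers, 18 were not called and 1 rose; their median change was 0.10.

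PSR21008459 also fell with each hairpin. It read 7.86, 7.89 and 7.86 under shRNA1, 7.87, 7.79 and 7.98 under shRNA2 and 8.29, 8.30 and 8.10 under shRNA3, against 9.23, 8.89 and 8.82 in the control. The groups did not overlap with the control, and shRNA3 lay above the other hairpins. The changes were -1.11, -1.10 and -0.75 (SE 0.10; adjusted p 0.000237, 0.000713 and 0.00322). PSR21008459 had only 1 kept neighbour within 10 numbers, which was not called. PSR08014528 differed from PSR01042796 in that 7 of its 8 kept neighbours also fell. Its change in the mean comparison was -1.06, and the shRNA1 call was lost without shRNA1 replicate 2, at an adjusted p of 0.0516.

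The exon row with the highest change was PSR08026011. It read 7.14, 7.35 and 7.02 under shRNA1, 6.90, 7.50 and 7.37 under shRNA2 and 7.15, 6.75 and 6.61 under shRNA3, against 5.79, 5.77 and 5.66 in the control. All control arrays lay below the level cutoff of 6.53 and all knockdown arrays above it, so this row passed the level filter through the knockdown groups. The changes were 1.43, 1.52 and 1.10 (SE 0.16), with adjusted p of 0.00145, 0.00176 and 0.00497 (limma). It did not rise alone: of its 15 kept neighbours within 10 numbers, 9 were called higher in the mean comparison. The run from PSR08025994 to PSR08026018 was drawn by joining rows called higher in that comparison, so its ends are called by that choice. Of its 21 kept unnamed exon rows, 12 rose in the mean comparison, and 9 to 12 did so when 1 array was left out. The median change of these 12 was 0.76, 0.84 and 0.64 with shRNA1, shRNA2 and shRNA3, while that of all 21 was 0.19, 0.26 and 0.35. All 9 rows of the run from PSR08026009 on rose, by 0.50 to 1.35 in the mean comparison, and 3 of the 12 rows numbered before them rose, by 0.20 to 0.30. This split was made after the values were seen. The next kept row after the run, PSR08026026, was at 0.05, 0.05 and 0.10 with shRNA1, shRNA2 and shRNA3.

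PSR0X022393 was 1 of the unnamed rows with a named twin. Its values equal those of a row listed under CXorf40A, now EOLA1, on every array. It read 10.06, 10.37 and 10.36 under shRNA1, 10.39, 10.47 and 10.34 under shRNA2 and 10.34, 10.18 and 9.77 under shRNA3, against 9.03, 9.34 and 8.99 in the control. Knockdown and control arrays did not overlap. It rose by 1.14, 1.28 and 0.98 (SE 0.14; adjusted p 0.00283, 0.00223 and 0.0047), while 18 of its 19 kept neighbours were not called. Of the 1509 exon rows with a named twin, 52 rose and 36 fell in the mean comparison, and of the 663 junction rows 40 rose and 15 fell. These are 5.83% and 8.3%, near the 6.52% and 8.38% called over all exon and junction rows. Further examples were PSR08024175, identical to a row of ADAM9, a membrane-bound metalloprotease, which rose by 0.36, 0.66 and 0.45, and JUC08011898, identical to a row of BOP1, a ribosome biogenesis factor, which fell with shRNA3 (-0.51, adjusted p = 0.0331) and was at -0.36 and -0.35 with shRNA1 and shRNA2 (adjusted p 0.152 and 0.116). The shRNA1 call of PSR08024175 was lost without any 1 shRNA1 array, control replicate 2 or 3 or shRNA3 replicate 2, in the fit of 2 groups (adjusted p = 0.06), with the block (0.0647) and with no level filter (0.106). The shRNA3 call of JUC08011898 was lost without any 1 control or shRNA3 array and with no level filter (0.0905). The values of such rows cannot be told apart from those of the named gene.

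A run of 22 consecutive exon rows, PSR12032538 to PSR12032559, rose as a whole. The median log2 level of the 22 rows was 9.53, 9.62 and 9.48 under shRNA1, 9.34, 9.79 and 9.71 under shRNA2 and 9.60, 9.57 and 9.45 under shRNA3, against 8.71, 8.94 and 8.82 in the control. No knockdown array reached down to the control arrays. All 22 rows rose in the mean comparison; with shRNA1 20 rows rose, and with shRNA2 and with shRNA3 all 22. The median change was 0.66 under shRNA1, 0.73 under shRNA2 and 0.68 under shRNA3, or 1.58-, 1.66- and 1.61-fold. The spread among the rows was narrow, with changes of 0.51 to 0.83, 0.52 to 0.89 and 0.53 to 0.75, although their levels ranged from 7.48 to 11.0. Leaving out 1 array left 21 or 22 calls in the mean comparison. For shRNA1 there were 6 calls without its replicate 2, 13 without its replicate 1, and 11 and 14 when control replicate 1 or control replicate 3 was left out. In fits of only the 2 groups compared 11 of the 22 calls with shRNA2 held, and with no level filter 9 of the 20 calls with shRNA1 did. The run was picked for its changes, and its rows are not independent of each other.

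Other exon runs chosen in the same way rested more on single arrays. Some lost every call of the mean comparison without control replicate 1. Among these were the 11 rises from PSR01044846 to PSR01044868 and the 10 from PSR15019956 to PSR15019972. The 9 falls from PSR06033003 to PSR06033018 and the 8 from PSR06016514 to PSR06016535 were lost in that way too. So were all calls of the junction runs JUC03003978 to JUC03004001 and JUC10005536 to JUC10005544. From PSR01068579 to PSR01068596, 13 of 15 kept exon rows rose in the mean comparison, with a median change of those 13 of 0.75, 0.71 and 0.67 with shRNA1, shRNA2 and shRNA3. Of these calls 2, 7 and 3 were left when control replicate 1, 2 or 3 was dropped, and 8 when shRNA1 replicate 1, shRNA1 replicate 2 or shRNA3 replicate 1 was. From PSR02017039 to PSR02017049, all 7 kept rows fell, with a median of -0.54, -0.40 and -0.43. Without control replicate 1 or 3 there were 2 such calls and without control replicate 2 there were 4, while 6 or 7 were left when a knockdown array was dropped. Among junction rows, 6 of 8 from JUC08007402 to JUC08007414 fell, with a median of -0.42, -0.59 and -0.54, and 5 or 6 were called without 1 knockdown array and 4 without any 1 control array. With no level filter 4 of the 13, 2 of the 7 and 4 of the 6 calls held.

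Between hairpins, few unnamed rows differed. The difference of shRNA2 from shRNA1 was called for 16 exon rows (11 higher, 5 lower) and 6 junction rows (5 higher, 1 lower). These are 0.0251% of unnamed exon rows and 0.0483% of unnamed junction rows. Over all rows tested the share was 0.0763% of exon rows (0.0347% higher and 0.0416% lower) and 0.115% of junction rows (0.0614% higher and 0.0532% lower). The difference of shRNA3 from shRNA1 was called for 130 unnamed exon rows (0.204%) and 24 unnamed junction rows (0.193%, 8 higher and 16 lower). The shares were 0.34% of all exon rows and 0.429% of all junction rows (0.101% higher and 0.328% lower). The difference of shRNA3 from shRNA2 was called for 175 unnamed exon rows (0.274%) and 57 unnamed junction rows (0.459%, 22 higher and 35 lower). Here the shares were 0.416% of all exon rows and 0.657% of all junction rows (0.209% higher and 0.448% lower). Most unnamed exon rows called were lower with shRNA3, 113 of 130 against shRNA1 and 135 of 175 against shRNA2. Most calls over all exon rows were lower too. They were 934 of 1135 against shRNA1 (0.28% lower and 0.0602% higher) and 909 of 1389 against shRNA2 (0.272% lower and 0.144% higher). A difference between unnamed and all rows was not tested. The counts of unnamed rows moved widely with single arrays, and the share over all rows was not counted with an array left out. For shRNA2 against shRNA1, dropping any 1 array left 3 to 10 exon rows and 2 to 7 junction rows. For shRNA3 against shRNA1 the exon count was 34, 19 or 19 without shRNA1 replicate 1, 2 or 3, 30, 77 or 24 without shRNA3 replicate 1, 2 or 3, and 77 and 74 without control replicates 2 and 3; 1 to 36 junction rows were left. For shRNA3 against shRNA2 it was 49 or 19 without shRNA2 replicate 1 or 3 but 476 without shRNA2 replicate 2, and 40, 72 or 27 without shRNA3 replicate 1, 2 or 3; it was 85 to 106 without any 1 shRNA1 array, and 103 and 104 without control replicates 2 and 3, while 7 to 183 junction rows were left. When only the 2 groups compared were fitted, limma called 0 exon and 2 junction rows for shRNA2 against shRNA1, 19 and 6 for shRNA3 against shRNA1, and 0 and 0 for shRNA3 against shRNA2. Beside these counts of 0, 3718 of 63766 unnamed exon rows for shRNA2 against shRNA1 had an unadjusted limma p below 0.05. For shRNA3 against shRNA2 these were 5944 of 63766 exon and 1881 of 12428 junction rows. By its definition that threshold is also met by a share of about 0.05 of rows that do not differ. The share over all rows was not counted in these fits, so these counts are not read as differences.

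Some single rows differed between hairpins. PSR11031291 read 6.97, 7.11 and 7.03 under shRNA1, 6.44, 6.48 and 6.37 under shRNA2 and 7.15, 7.002 and 7.26 under shRNA3, against 7.01, 7.17 and 6.90 in the control. Only the shRNA2 arrays lay below the rest, with a change of -0.59 against the control (adjusted p = 0.00729) and a difference of shRNA3 from shRNA2 of 0.70 (adjusted p = 0.00571). That difference was lost when only those 2 groups were fitted (adjusted p = 0.079), while the call against the control held (adjusted p = 0.0472). PSR0X022481 read 8.49, 8.51 and 8.50 under shRNA1, 9.01, 9.22 and 9.34 under shRNA2 and 8.97, 8.96 and 8.90 under shRNA3, against 8.63, 8.60 and 8.68 in the control; shRNA2 exceeded shRNA1 by 0.69 (adjusted p = 0.00401), a call that was lost when only those 2 groups were fitted (adjusted p = 0.125). Against the control this row rose with shRNA2 (0.56, adjusted p = 0.00621) and shRNA3 (0.31, adjusted p = 0.0369) and was at -0.14 with shRNA1 (adjusted p = 0.375); the shRNA3 call was lost without any 1 control, shRNA1 or shRNA3 array, with the block (adjusted p = 0.0543) and with no level filter (0.0958), and the shRNA2 call was lost in the fit of 2 groups (0.0549). JUC07001793 read 7.83, 7.97 and 7.75 under shRNA1, 7.51, 7.75 and 7.79 under shRNA2 and 8.28, 8.36 and 8.68 under shRNA3, against 7.66, 7.72 and 7.65 in the control. In that junction row it was the shRNA3 arrays that lay above all others, 0.76 above shRNA2 (adjusted p = 0.0123) and 0.59 above shRNA1 (adjusted p = 0.0394). The difference from shRNA1 was lost without any 1 control, shRNA1 or shRNA3 array, at an adjusted p of up to 0.163, and in the fit of 2 groups (0.0923), with the block (0.0616) and with no level filter (0.135). That from shRNA2 was lost in the fit of 2 groups (adjusted p = 0.137) and with no level filter (0.0605).

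In 1 run of exon rows, shRNA1 and shRNA3 went opposite ways. The 15 unnamed rows kept from PSR04029334 to PSR04029348 were all above the control with shRNA1, with a median change of 0.34 (0.20 to 0.59), and all below it with shRNA3, with a median of -0.45 (-0.82 to -0.29). With shRNA2 the median was 0.06, and 12 of the 15 were above the control. Against the control, 7 rows rose with shRNA1, 1 rose with shRNA2 and 12 fell with shRNA3; the shRNA1 count was 1 without any 1 control array or shRNA1 replicate 2, 2 without shRNA1 replicate 1 or 3, and 4 without shRNA3 replicate 2, and 12 falls with shRNA3 became 5 when control replicate 1 was left out and 7 when control replicate 3 or shRNA3 replicate 3 was. The difference of shRNA3 from shRNA1 was called lower for 14 of the 15, with a median of -0.84, and for 9 without shRNA1 replicate 2. That of shRNA3 from shRNA2 was called lower for 10, with a median of -0.51, and for 2 without shRNA2 replicate 3 or shRNA3 replicate 3, 5 without replicate 1 of either, and 6 without shRNA3 replicate 2. When only the 2 groups compared were fitted, 4 of the 7 rises with shRNA1 held, as did 11 of the 12 falls with shRNA3, 10 of the 14 differences from shRNA1 and 0 of the 10 differences from shRNA2. With the block these were 2, 9, 14 and 7, with no level filter 1, 7, 7 and 2, and with exon and junction rows adjusted apart 4, 12, 14 and 7. The 1 rise with shRNA2 held in none of these 4 settings. As an example, PSR04029346 read 8.04, 8.35 and 8.27 under shRNA1, 8.04, 7.80 and 7.92 under shRNA2 and 6.96, 7.37 and 6.80 under shRNA3, against 8.01, 7.81 and 7.76 in the control. The shRNA3 arrays lay below all others, with a difference from shRNA1 of -1.18 (SE 0.14, adjusted p = 0.00786, limma). That call was lost when only those 2 groups were fitted (adjusted p = 0.0547) and with no level filter (0.0507).

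**Figure D4:**
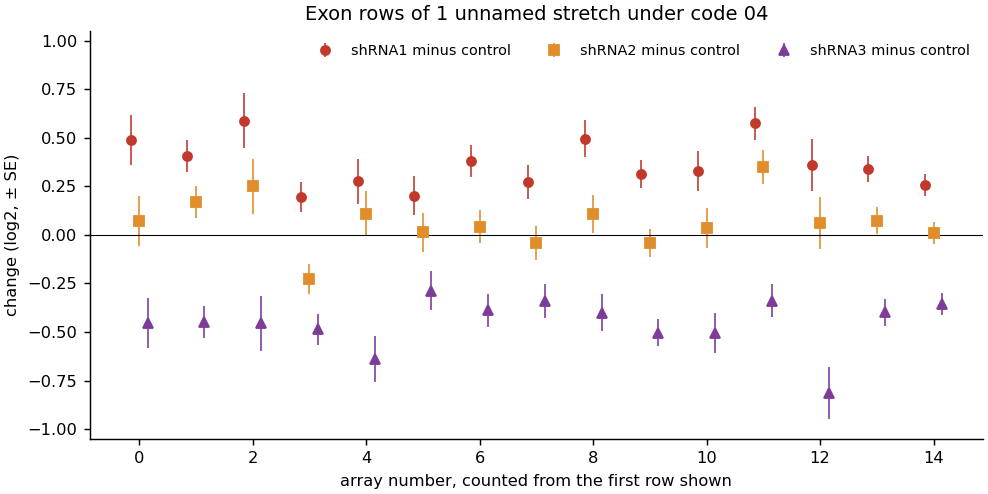
Change against the control (log2, ± SE) of the 15 exon rows from PSR04029334 to PSR04029348 by array number, for shRNA1 (circles), shRNA2 (squares) and shRNA3 (triangles). All 15 values lie above 0 with shRNA1 and below 0 with shRNA3.

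The rows with the chromosome code 0M were described apart, since all of them are unnamed. All 35 rows of this code lack a symbol, so that the code could not be set against RefSeq as the others were. Of the 34 kept, 32 exon and 2 junction rows, the median level was 13.2 and the range 7.87 to 13.8; 23 exceeded 13, as did 455 unnamed rows in all. These 23 had changes of -0.07 to 0.05 with shRNA1, -0.04 to 0.07 with shRNA2 and -0.08 to 0.03 with shRNA3. Over all 34, none rose with any hairpin by limma, while 1 fell with shRNA1, none with shRNA2 and 2 with shRNA3, where 1.42%, 3.53% and 5.61% of all exon rows were called. In the mean comparison 1 rose and 3 fell, or 11.8% of the 34, against 6.52% of all exon rows. At an unadjusted limma p below 0.05, 2 of the 34 were higher and 4 lower under shRNA1. Under shRNA2 2 were higher and 3 lower, and under shRNA3 1 higher and 4 lower. Of 63766 unnamed exon rows, 9873, 11574 and 14145 had such a p with shRNA1, shRNA2 and shRNA3. Of 270371 named exon rows these were 44162, 55454 and 66075. A difference from these backgrounds was not tested. The row that fell with shRNA1 was PSR0M000019, at -0.65, -0.31 and -0.37 with shRNA1, shRNA2 and shRNA3 (adjusted p 0.00802, 0.0876 and 0.042); its shRNA3 call was lost without any 1 control or shRNA3 array and without shRNA1 replicate 1, and in the fit of 2 groups (0.0559), with the block (0.0638) and with no level filter (0.106). The other row that fell with shRNA3, PSR0M000006, was at -0.31 (adjusted p = 0.0163), and the call was lost without control replicate 3 or shRNA3 replicate 1 and with no level filter (0.053).

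**Figure D5:**
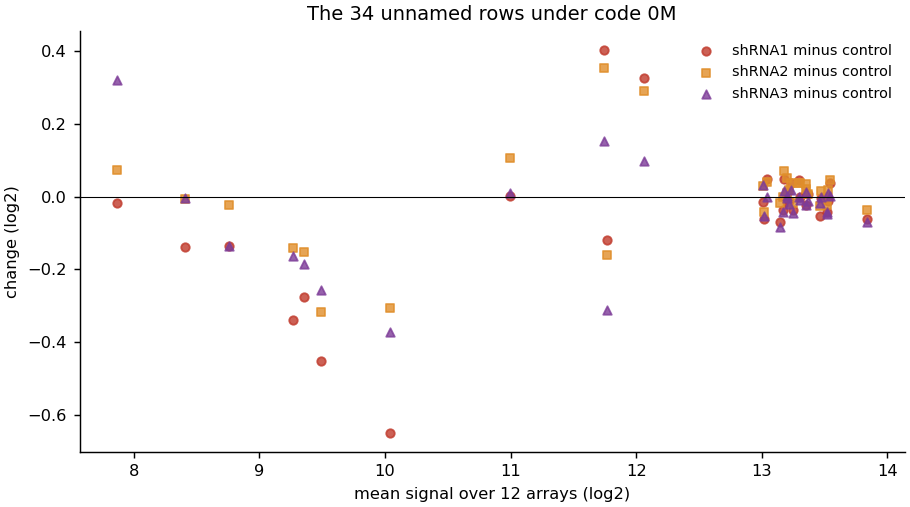
Change against the control (log2) of the 34 kept rows of code 0M by their mean log2 level, for shRNA1, shRNA2 and shRNA3. The 23 rows above a level of 13 lie between -0.08 and 0.07.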

How the data were processed

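Total RNA from 12 arrays (4 groups of 3) was measured on human exon and junction arrays. The deposited log2 values were made by the authors with RMA in Affymetrix Expression Console, per the submitters' processing notes. Software versions, settings and the genome build: not given in the sources used here. RMA subtracts background, equalises the arrays' distributions and summarises the probes of a row, so a level is relative and differences can be compressed at the low end. No column was left unused (0).

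Symbols came from the platform annotation: 672085 rows list 1 symbol, 39483 several and 201487 none; 1530 control rows were left out. Rows at or below the 40th percentile and repeats of identical rows were removed. limma 3.58.1 in R 4.3.3 (lmFit and eBayes) was fitted to all 12 arrays in 4 groups without covariates, with 8 residual degrees of freedom, two-sided, with Benjamini-Hochberg adjustment over all 518253 rows of a comparison. The script was tested on simulated data with changes planted in unnamed rows. Of 100 planted changes of 0.5 on the log2 scale, 41, 38 and 34 were recovered with shRNA1, shRNA2 and shRNA3. Of 100 changes of 1 these were 86, 87 and 88. Many changes of 0.5 were thus missed in the simulation.

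The members and lists were chosen with earlier results of these data known. Rows were named by rule, exon and junction rows apart: the 8 highest and 8 lowest changes called in the mean comparison, the 3 largest each way per hairpin, and the 2 largest each way per difference between hairpins, keeping of rows within 10 numbers of each other the largest. Other rows and all runs were chosen after their values were seen. Alternatives were a change of at least 1.5-fold, adjustment by row type, no or a 60th percentile filter, 2-group fits, a replicate block, a level-dependent variance prior, quantile normalization, median centring, identical copies kept, rows with a named twin left out, and each array left out. For single rows and runs, the effect of leaving out an array was examined after seeing the data, as was, for calls not planned, that of the 2-group fit, the block, the filter and the adjustment.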

Additional observations from a re-analysis of the deposited data

Results flagged for a closer look

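In the run of exon rows from PSR04029334 to PSR04029348, 7 rows rose with shRNA1 and fell with shRNA3, each past limma's adjusted threshold, and the difference of shRNA3 from shRNA1 was called too. That difference was -0.85 for PSR04029335 (adjusted p = 0.00341), -0.77 for PSR04029340 and -0.90 for PSR04029342 (both 0.00573). It was -0.82 for PSR04029343, -0.91 for PSR04029345, -0.74 for PSR04029347 and -0.61 for PSR04029348, each with an adjusted p of 0.00338. PSR04029345 also rose with shRNA2, and its difference of shRNA3 from shRNA2 was -0.69 (adjusted p = 0.00697), which was lost when only those 2 groups were fitted (adjusted p = 0.0777). The 7 differences of shRNA3 from shRNA1 held in the fit of 2 groups, with the replicate block, with no level filter and with exon and junction rows adjusted apart. The 7 rises with shRNA1 held in 4, 2, 1 and 4 rows in these settings, the 7 falls with shRNA3 in 7, 5, 4 and 7, and the rise of PSR04029345 with shRNA2 in none. The log2 levels of PSR04029345 were 9.32, 9.64 and 9.49 under shRNA1, 9.28, 9.14 and 9.35 under shRNA2 and 8.58, 8.64 and 8.49 under shRNA3, against 8.91, 8.97 and 8.84 in the control, so every shRNA1 and shRNA2 array lay above and every shRNA3 array below the control arrays. The hairpins share the control arrays, and the rows are numbered next to each other and are not independent.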

How the results depend on the processing

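Quantile normalization, median centring, keeping identical copies and leaving out rows with a named twin kept every count of calls within 1.5 times its value. In what follows, exon counts precede junction counts, and all are counts of unnamed rows. Apart from the main fit and its limit of 1.5-fold, the share over all rows was not counted in these settings. The counts are therefore not set against a background, and the number of rows tested changes with the level filter. At least 1.5-fold were 143 and 68 called rows under shRNA1, 168 and 135 under shRNA2, 386 and 130 under shRNA3, 176 and 77 in the mean comparison, 4 exon rows for shRNA2 against shRNA1, 31 and 12 for shRNA3 against shRNA1 and 32 and 21 for shRNA3 against shRNA2. Adjusting exon and junction rows apart moved 1 count by over 1.5 times, the 57 junction calls of shRNA3 against shRNA2, to 97; within that limit the exon count with shRNA1 went down to 567 and that with shRNA2 to 1313. With no level filter, all distinct unnamed rows were tested, 34420 of them junction rows. Called were 148 and 45 with shRNA1, 246 and 112 with shRNA2, 755 and 198 with shRNA3, and 1188 and 338 with their mean. In the 3 differences between hairpins, 3 and 2, 10 and 0, and 16 and 4 were called. Beside the 0 in limma, 3640 of 34420 unnamed junction rows had an unadjusted p below 0.05. A 60th percentile filter gave 27 exon rows for shRNA2 against shRNA1, 252 and 55 for shRNA3 against shRNA1, and 300 exon rows for shRNA3 against shRNA2. Fits of only the 2 groups compared gave 96 and 60 with shRNA2 and 0 and 2 for shRNA2 against shRNA1. They gave 19 and 6 for shRNA3 against shRNA1, and 0 and 0 for shRNA3 against shRNA2. Beside these counts of 0, 3718 and 5944 of 63766 exon rows and 1881 of 12428 junction rows had an unadjusted limma p below 0.05. A variance prior that follows the level gave 1503 and 419 under shRNA1, 1082 junction rows under shRNA2, 926 under shRNA3, and 28 and 11, 283 and 73, and 374 and 150 between hairpins. The replicate block gave 447 and 130 under shRNA1, 1117 and 447 under shRNA2, and 5 and 3, 50 and 12, and 69 and 23 between hairpins; the other 4 counts stayed within 1.5 times. The numbers were not taken as pairs: no pair of groups had all 3 correlations of same-numbered deviations above 0.1 (for shRNA2 and control over all kept rows 0.090, 0.108 and 0.131). Leaving out 1 array gave 96 to 1364 and 31 to 283 under shRNA1, 238 to 2532 and 103 to 635 under shRNA2, 501 to 4027 and 114 to 759 under shRNA3, 628 to 5194 and 185 to 1099 in the mean comparison, and 3 to 10 and 2 to 7, 19 to 171 and 1 to 36, and 19 to 476 and 7 to 183 between hairpins. No named row reversed; of 91 calls of named rows, 78 held and 13 were lost with the block, 61 held and 30 were lost with no level filter, and 71 held and 20 were lost without control replicate 3. Of those that a fit of 2 groups can test, 37 held and 22 were lost. The cause of these shifts was not tested. No background level was measured for a row here, so rows near the level cutoff cannot be placed above or below background.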
